A study of Drosophila melanogaster with 31 samples.

Results

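The genes described here are 9 members of the Hairy and Enhancer-of-split family of basic helix-loop-helix (bHLH) repressors of Drosophila melanogaster: hry, dpn, Hey, E(spl)mgamma-HLH, E(spl)mbeta-HLH, E(spl)m3-HLH, E(spl)m7-HLH, E(spl)mdelta-HLH and E(spl)m8-HLH. They are 9 of the 13821 genes measured. The members were chosen by name, with hry selected on its rise in stimulated antennae, so the values of hry in that comparison are a description and carry no test. Antennae or brains of males were profiled by RNA-seq after exposure to odor and light, and after continued sensory deprivation (0 min). The antennal libraries held segments 2 and 3 of the antenna of flies aged 4 to 5 days, in 4 groups of 2 libraries: Orco2 stimulated, Orco2 at 0 min, OreR stimulated and OreR at 0 min. OreR is a wild-type strain. Orco2 (w*; TI{TI}Orco2) carries a mutation of Orco, the gene of the odorant receptor co-receptor, in another strain background, so genotype and background cannot be told apart. The label of the stimulated antennae lists 10, 20 and 30 min, so the duration in any 1 library is not known. All brains came from OreR: at 4 to 5 days (called 5-day brains) at 0, 10, 20, 30 and 45 min with 3 libraries per time, and at 10 and 25 days at 30 and 0 min with 2 libraries per group.

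Proteins of this family bind DNA as dimers and switch off transcription, mostly through the co-repressor Groucho, which they recruit with a short C-terminal motif. Most genes of the Enhancer-of-split complex are direct targets of Notch signalling, and their products restrain the proneural bHLH genes so that neighbouring cells take different fates. Hairy, Deadpan and Hey share the bHLH and Orange domains of these proteins, but their genes lie outside the complex.

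Libraries held 18.5 to 76.7 M estimated counts (M, 1000000). Orco checked the genotype labels: its 4 Orco2 libraries lay between 5.77 and 6.52 TPM (transcripts per 1000000, a level scaled by transcript length), against 1360 to 1410 TPM in the 4 OreR antennal libraries. The tissue labels were checked with marker genes. The summed level of antennal support cell markers was 36873 TPM or more in every antennal library and 25.8 TPM or less in every brain library. Of the listed neural stem cell markers, wor stayed at or below 0.0769 TPM in antennae and 0.179 TPM in brains. It does not stand for that list, of which 5 markers were high enough to be tested in antennae and 4 in brains. In 4 brain libraries the transcripts of ribosomal proteins were low (5-day 0 min C, 5-day 20 min C, and both B libraries at 25 days, with median log2 deviations of -1.13, -0.73, -1.48 at 0 min and -1.52 at 30 min). In 1 brain library (10-day 30 min A) 5 gut markers summed to 9394 TPM, against 440 TPM or less in the other brain libraries. These values are repeated below where they touch a result. Replicates are biological in the series' wording, while the number of flies pooled per library is not given, so p-values measure the spread between these libraries.

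hry encodes Hairy, known from the embryo as a pair-rule segmentation protein and from the adult as a regulator of bristle pattern. The gene lies at chr3L:8675759-8679253 on the plus strand of BDGP6.54 (dm6) and has 2 annotated transcripts of 3 exons each. In Orco2 antennae hry stood at 109.6 and 101.6 TPM after stimulation, against 37.2 and 47.3 TPM at 0 min. In OreR antennae it stood at 128.8 and 117.1 TPM after stimulation, against 49.2 and 47.1 TPM at 0 min. All 4 stimulated libraries were above all 4 libraries at 0 min, in both strains. The fitted difference was 1.32 ± 0.11 on the log2 scale (SE), or 2.50-fold, in Orco2 and 1.37 ± 0.11, or 2.59-fold, in OreR.

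Over both strains the fitted difference averaged log2 1.35 ± 0.08. The choice of hry used this contrast, so these values are a description. The background of the contrast was 0.00885% of 11298 genes passing, and nothing is read from it for hry. The rise was not detectably different between the strains. The interaction (Orco2 minus OreR) was -0.05 ± 0.15 with a 95% interval of -0.42 to 0.31 (edgeR quasi-likelihood test with Benjamini-Hochberg adjustment, adjusted p = 1), and 0% of genes passed this test. Between strains hry was nearly level, at log2 -0.19 ± 0.11 (adjusted p = 0.375) after stimulation and -0.14 ± 0.11 (adjusted p = 0.672) at 0 min.

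**Figure D1:**
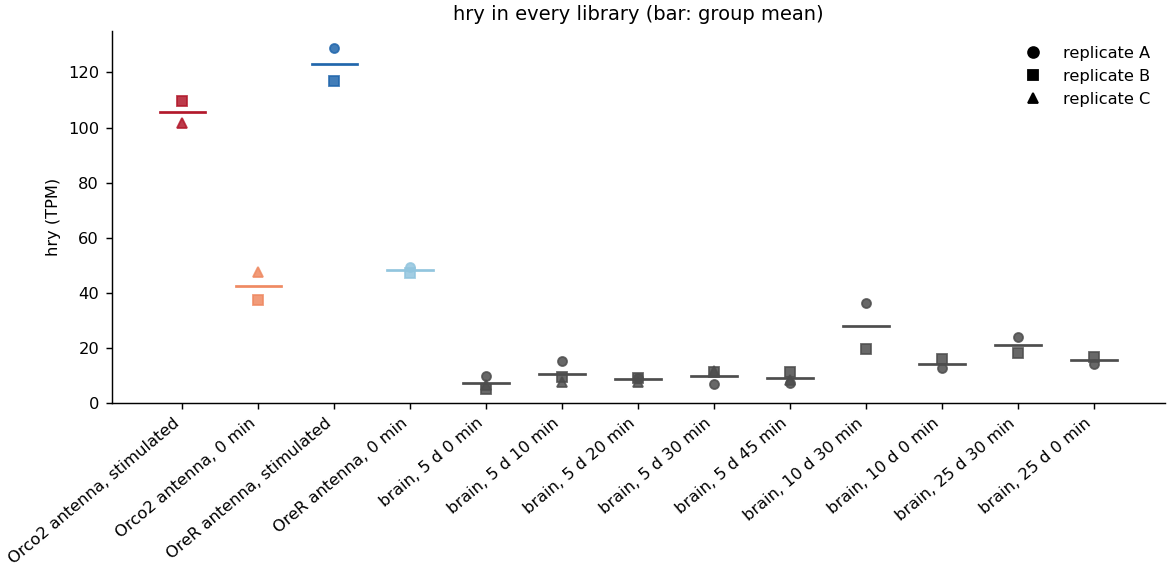
Level of hry in TPM (vertical axis) in each of the 31 libraries, by group (horizontal axis). Symbols mark replicate letters and bars the group means, and the stimulated antennae of both strains (101.6 to 128.8 TPM) stand above every other library.

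Libraries of 1 replicate letter shared a fragment length within each strain (299 and 355 bases in Orco2, 302 and 355 in OreR), so the stimulus can be read within letters. The ratio of stimulated to 0 min normalised counts of hry was 2.79 in Orco2 B and 2.25 in Orco2 C, against 2.63 in OreR A and 2.55 in OreR B. Each of the 4 letter pairs moved the same way and by a similar factor. This describes the libraries on which hry was picked and is no separate support for its rise. Both hry transcripts contributed: the longer one, hry-RB, made up 53.6% and 62.0% of hry TPM in stimulated Orco2 antennae and 55.8% and 59.96% at 0 min. In OreR antennae its share was 48.4% and 55.4% after stimulation and 55.3% and 76.2% at 0 min. The shares overlapped in both strains, and the split between overlapping transcripts is an estimate.

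Likeness to hry was measured as the root mean square difference of centred log2 CPM (counts per 1000000) over the 8 antennal libraries, among 9134 genes with a mean log2 CPM of at least 1. The nearest were Tdc1, a tyrosine decarboxylase gene (0.24), CG15673 (0.30), Cdc7, a kinase gene (0.37), daw, which encodes an activin-type ligand (0.37), and cbt, which encodes the transcription factor Cabut (0.43). The scatter of hry about its own mean was 0.68 on the same scale. None of the 5 changed as much as hry in both strains. Tdc1 had fitted differences of 0.80 in Orco2 and 1.40 in OreR, and cbt 0.68 in Orco2 and 0.39 in OreR. These neighbours are a description of 8 libraries and were not tested.

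E(spl)mbeta-HLH and E(spl)m3-HLH were the most abundant complex members in antennae. Both are Notch-responsive repressors of the Enhancer-of-split complex on arm 3R, and each is a single exon (chr3R:26005046-26006023, minus strand, and chr3R:26021823-26023127, plus strand). E(spl)mbeta-HLH stood at 39.6 and 37.3 TPM in stimulated Orco2 antennae, against 28.2 and 26.8 TPM at 0 min. In OreR it stood at 34.9 and 31.9 TPM after stimulation, against 28.2 and 28.3 TPM at 0 min. The stimulated libraries lay above those at 0 min in both strains. The difference was log2 0.38 ± 0.10 over both strains (95% interval 0.14 to 0.62, unadjusted p = 0.00803), 0.47 ± 0.14 in Orco2 and 0.29 ± 0.15 in OreR. It did not pass adjustment over all genes (edgeR, adjusted p = 1, and 0.381 to 1 over 15 alternatives). Within replicate letters the ratio was 1.33 and 1.46 in Orco2 (B and C) and 1.26 and 1.18 in OreR (A and B).

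E(spl)m3-HLH did not show this pattern. It stood at 20.9 and 20.6 TPM in stimulated Orco2 antennae, against 19.0 and 16.8 TPM at 0 min. OreR antennae had 17.7 and 24.2 TPM after stimulation, against 21.5 and 20.3 TPM at 0 min. The OreR groups overlapped, and the difference over both strains was log2 0.12 ± 0.13 (95% interval -0.19 to 0.44, edgeR adjusted p = 1). hry carries no test here and is left out of this count. Of the other 6 members tested in antennae, 0 passed for the stimulus in either strain. Over all 11298 genes, hry included, 0% passed in either strain (241 in Orco2 and 186 in OreR had an unadjusted p under 0.05). With DESeq2, 18 genes passed for the mean of both strains.

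E(spl)mgamma-HLH was the member that separated the strains. Its product is known from neural stem cells, where it is a Notch target. The gene is a single exon at chr3R:25999851-26000761 on the plus strand. It stood at 0 and 0.206 TPM in stimulated Orco2 antennae, against 8.24 and 10.7 TPM in stimulated OreR antennae. At 0 min it stood at 0.0615 and 0.536 TPM in Orco2, against 10.2 and 12.0 TPM in OreR. All 4 Orco2 libraries lay far below all 4 OreR antennal libraries, and within OreR the stimulated and 0 min levels overlapped.

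In estimated counts this was 0 and 4 against 96 and 187 after stimulation, and 2 and 8 against 107 and 141 at 0 min. Scaled by library size, the summed counts in Orco2 were 117-fold lower after stimulation (ratio 0.00851, 95% counting interval 0.0023 to 0.022) and 48.9-fold lower at 0 min (ratio 0.0205, interval 0.00969 to 0.0383). These intervals cover counting error only. The fitted difference was log2 -6.60 ± 1.31 after stimulation (edgeR, adjusted p = 0.0321), where 7.15% of the genes tested passed. It was -5.32 ± 1.21 at 0 min (adjusted p = 0.0571), just short of the threshold, where 5.36% passed and 0 members did. The 0 min difference passed with DESeq2 (adjusted p = 3.87e-07), and the stimulated one missed the threshold without OreR A (0.0806), OreR B (0.0682) or Orco2 B (0.106). The shares of genes passing are those of edgeR, and the share that DESeq2 called is not given here. E(spl)mgamma-HLH entered the antennal fit only because its OreR libraries exceeded the filter on low counts, so it had to differ to be tested at all.

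Libraries of like fragment length gave the same direction. Among those of 355 bases, Orco2 C held 0.109 normalised CPM after stimulation and 0.271 at 0 min, against 5.65 and 6.05 CPM in OreR B. Among those of 299 and 302 bases, Orco2 B held 0 CPM after stimulation and 0.0365 at 0 min, against 4.52 and 5.50 CPM in OreR A. In bulk tissue, fewer cells that express a gene and less RNA per cell cannot be told apart. Of 4 markers of Johnston's organ, the hearing organ in the second antennal segment, 1 (nompA) was lower in Orco2, at 1.41 to 2.01 TPM, against 27.5 to 33.4 TPM in OreR. The 4 markers summed to 55.5 to 73.8 TPM in Orco2 and 76.1 to 86.6 TPM in OreR. The antennal support cell markers summed to 36873 to 40610 TPM in Orco2 and 43523 to 54326 TPM in OreR. Neither sum overlapped between strains. The Johnston's organ sum includes nompA, whose own gap between strains is wider than the gap between the sums. The other markers of that list (nompC, iav and nan) did not pass between strains in either state (edgeR). The sum therefore does not show that Johnston's organ markers other than nompA were lower in Orco2. Of the 5 support cell markers tested, 0 passed between strains after stimulation or at 0 min (edgeR), where 7.15% and 5.36% of all genes did. The part of either cell type in the E(spl)mgamma-HLH result was not tested.

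The other complex genes are given beside E(spl)mgamma-HLH as a description. Of the 15 genes in a window of 56.4 kb around the complex, 9 were tested. At 0 min 0 of them were called between strains, and after stimulation 1 was, E(spl)mgamma-HLH, whose call depends on single libraries as given above. Over all genes 5.36% passed at 0 min and 7.15% after stimulation. With 9 genes these counts are near that background, and nothing particular to the complex is read from them. E(spl)mdelta-HLH, the next gene to the left, was too low to be tested. E(spl)mbeta-HLH, the next gene to its right, differed by log2 0.23 ± 0.14 (adjusted p = 0.433) after stimulation and 0.04 ± 0.14 (0.947) at 0 min. The Bearded-family gene E(spl)m2-BFM had -0.28 ± 0.20 (0.488) and 0.13 ± 0.20 (0.863). The co-repressor gene gro, at the far end of the complex, had 0.29 ± 0.14 (0.293) and 0.02 ± 0.14 (0.974), all from the same edgeR fit. Orco lies on the same arm, 20.6 Mb away.

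**Figure D2:**
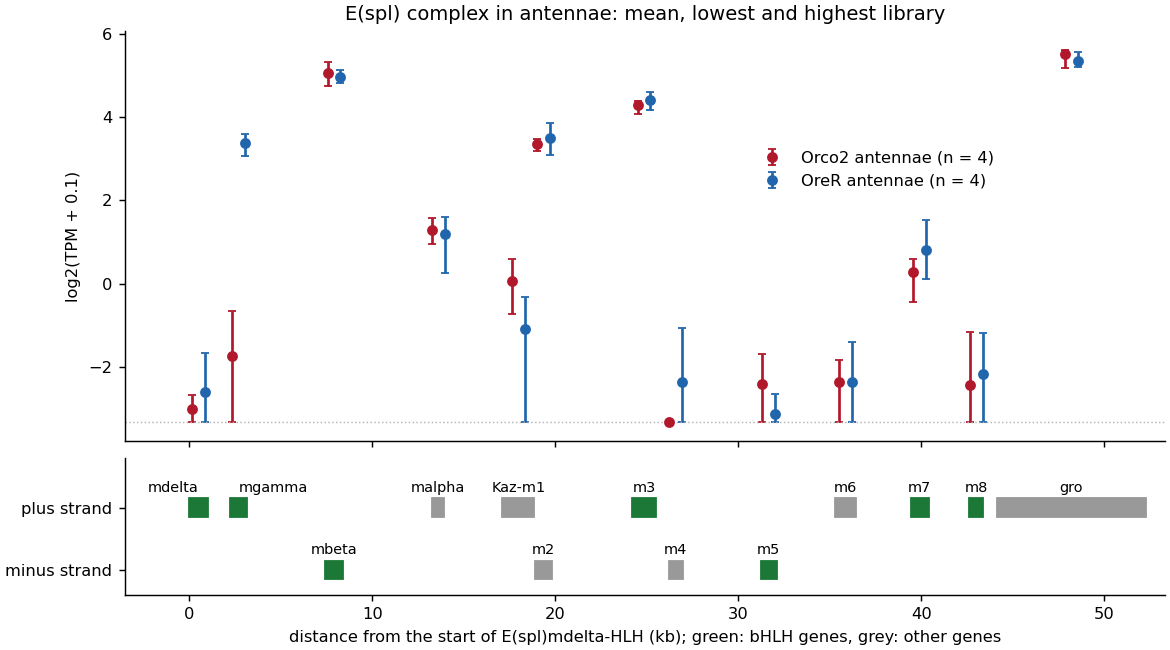
Upper panel: mean level as log2(TPM + 0.1) of 13 genes of the complex in Orco2 (red) and OreR (blue) antennae, with whiskers to the lowest and highest of 4 libraries, stimulated and 0 min together, and a dotted line at 0 TPM. Lower panel: gene positions by distance from the start of E(spl)mdelta-HLH in kb, where the strains part at E(spl)mgamma-HLH (0.201 TPM in Orco2 and 10.3 TPM in OreR on average).

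dpn encodes Deadpan, a repressor that marks neural stem cells of the larva. In antennae it stood at 0 and 0.0342 TPM in stimulated Orco2 libraries, against 0.0302 and 0.475 TPM in stimulated OreR libraries. At 0 min it stood at 0.065 and 0.0444 TPM in Orco2, against 0.701 and 0.396 TPM in OreR. These are few reads: 2 counts in all against 26 after stimulation (ratio 0.0463, 95% counting interval 0.00533 to 0.185), and 8 against 35 at 0 min (ratio 0.116, interval 0.0465 to 0.254). The groups overlapped after stimulation, because OreR A held 1 count. Neither difference passed (edgeR, adjusted p = 0.287 after stimulation and 0.449 at 0 min). Like E(spl)mgamma-HLH, dpn passed the low-count filter through OreR.

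The remaining members were low in antennae. Hey, a Notch target of newly born neurons, stood at 0.733 and 0.651 TPM in stimulated Orco2 antennae and at 1.60 and 1.04 TPM in stimulated OreR antennae. At 0 min it stood at 0.546 and 0.900 TPM in Orco2, against 0.843 and 0.998 TPM in OreR. The strains differed by log2 -0.90 ± 0.59 (edgeR, adjusted p = 0.456) and -0.30 ± 0.59 (0.907), with 95% intervals of -2.31 to 0.51 and -1.71 to 1.11.

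E(spl)m7-HLH, a repressor of proneural genes in lateral inhibition, had 1.07 and 1.42 TPM in stimulated Orco2 antennae, against 0.633 and 1.37 TPM at 0 min. In OreR antennae it had 2.77 and 1.37 TPM after stimulation, against 1.45 and 0.984 TPM at 0 min. All stimulated and 0 min groups overlapped (log2 0.57 ± 0.54 over both strains, edgeR adjusted p = 1). E(spl)mdelta-HLH and E(spl)m8-HLH, of the same group of repressors, did not pass the filter in any fit. E(spl)mdelta-HLH reached at most 0.216 TPM in an antennal library and 0.288 TPM in a brain library. E(spl)m8-HLH reached at most 0.345 TPM in antennae and 0.0937 TPM in brains, and it was listed at 0 in 20 of 23 brain libraries.

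**Figure D3:**
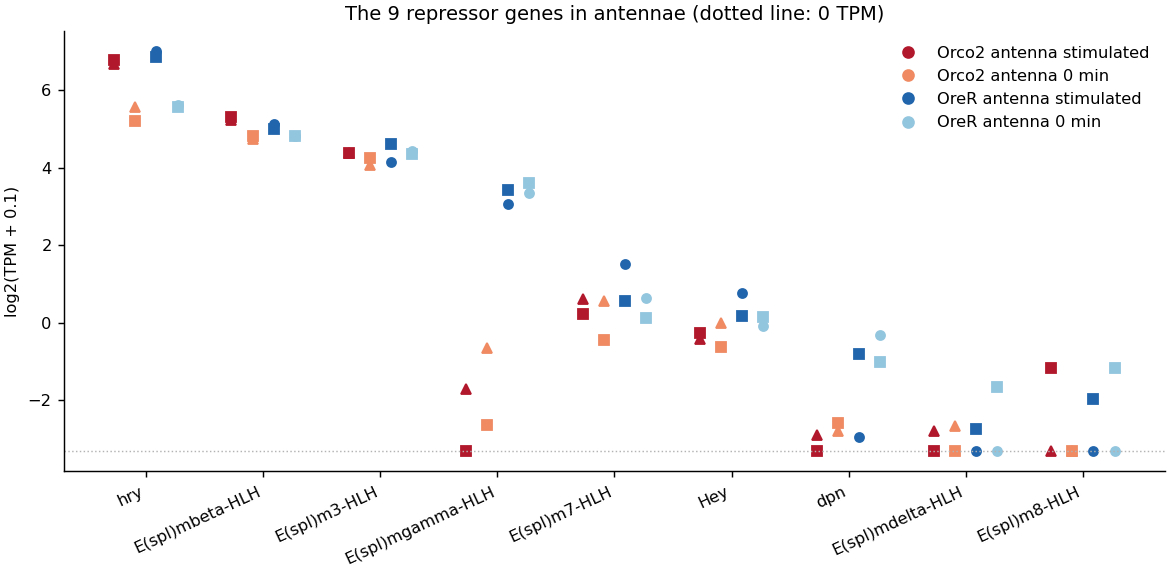
Level of the 9 genes as log2(TPM + 0.1) in the 8 antennal libraries (circle A, square B, triangle C), coloured by strain and stimulus, with a dotted line at 0 TPM. hry is split by stimulus (101.6 to 128.8 TPM stimulated, 37.2 to 49.2 TPM at 0 min), E(spl)mgamma-HLH by strain.

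Genes around the family were read from lists of the Notch pathway and its partners. For the stimulus, 0 of the 24 tested genes of the Notch core, 0 of 3 Bearded-family genes, 0 of 5 co-repressor genes, 0 of 7 proneural bHLH genes and 0 of 2 other genes of the HES type (Sidpn and cwo) passed. Over all genes 0.00885% passed for the mean of both strains and 0% in either strain, so these counts say little about the lists. The median log2 difference over the Notch core was 0.02, beside 0.00 over all genes. Between strains, 2 of the 24 Notch core genes (mib1 and mam) passed after stimulation and 1 (mib1) at 0 min, shares near the background of 7.15% and 5.36% of all genes. mib1, a ubiquitin ligase that activates Notch ligands, was higher in Orco2, by 0.51 ± 0.09 (edgeR, adjusted p = 0.022) after stimulation and 0.43 ± 0.09 (0.046) at 0 min. The Notch co-activator gene mam was higher after stimulation (36.5 and 40.9 TPM in Orco2 and 14.3 and 17.4 TPM in OreR, log2 1.08 ± 0.17, adjusted p = 0.0129). Su(H), the DNA-binding factor of the pathway, stood at 41.5 and 44.4 TPM in Orco2 and 59.6 and 61.7 TPM in OreR at 0 min, a difference that did not pass (-0.45 ± 0.13, adjusted p = 0.124). The median of the Notch core was 0.10 after stimulation and -0.04 at 0 min, beside -0.02 and 0.03 over all genes.

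hry, E(spl)m3-HLH and E(spl)mbeta-HLH were far more abundant in antennae than in brains. In OreR at 0 min, 5 of the 7 members tested were higher in antennae, beside a background in which 58.1% of 11772 genes passed, so a call by itself says little here. Of these 5, E(spl)mgamma-HLH and E(spl)m7-HLH passed the low-count filter through antennae alone and had to differ. The median log2 difference over all genes was 0.17. hry averaged 48.1 ± 1.52 TPM in antennae and 6.99 ± 2.38 TPM in 5-day brains (SD, n = 2 and 3; log2 3.44 ± 0.33, edgeR adjusted p = 1.71e-08). E(spl)m3-HLH differed by 3.28 ± 0.34 (4.86e-08) and E(spl)mbeta-HLH by 2.22 ± 0.36 (2e-05). The TPM means of hry stand for a smaller difference than its fitted value. Over 12 alternatives the log2 difference ranged from 2.75 to 3.75 for hry, 2.47 to 3.72 for E(spl)m3-HLH and 1.49 to 2.59 for E(spl)mbeta-HLH. The size of a tissue difference thus depends on the measure, here and in the tissue values below.

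E(spl)mgamma-HLH held 248 counts in the antennal libraries and 4 in the brain libraries (fitted log2 7.14 ± 1.34, edgeR adjusted p = 0.000107). For E(spl)m7-HLH the counts were 30 and 2, a ratio of 39.8 per library total (95% counting interval 10.1 to 344; adjusted p = 0.00314). Hey (0.15 ± 0.57, 0.831) and dpn (-0.35 ± 0.69, 0.678) did not pass, with intervals from -1.03 to 1.33 and from -1.80 to 1.09. In TPM the antennal libraries lay below the 5-day brains for dpn (0.396 and 0.701 against 0.828 to 1.75), while Hey overlapped. Antennae and brains differ in their cell types, and neuronal markers summed to 479 to 791 TPM in antennae and 2944 to 5573 TPM in brains.

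In the same edgeR test, of 24 Notch core genes 7 were higher and 5 lower in antennae, with a median of -0.27. Over all genes 3538 were higher and 3297 lower (58.1% of those tested), so passing in both directions is the background pattern here, for this list as for the others. The ligand gene Delta was higher (5.66 and 7.06 TPM in antennae, 1.11 to 1.21 TPM in brains, log2 3.08 ± 0.25), as was Su(H) (2.96 ± 0.11). The receptor gene N did not pass (-0.35 ± 0.40), and sca, a secreted protein gene of Notch-dependent spacing, was lower (-3.77 ± 0.24). gro was also lower (40.3 and 46.9 TPM in antennae, 86.1 to 105 TPM in brains, -0.44 ± 0.17). Of the 10 proneural bHLH genes 3 were higher and 5 lower. The higher ones were ase (4.32 ± 1.10), Fer3 (2.81 ± 0.69) and Fer1 (1.75 ± 0.27). The lower ones were ato (-4.29 ± 0.91), dimm (-4.50 ± 0.71), Fer2 (-5.12 ± 0.40), tap (-3.53 ± 1.01) and Oli (-3.16 ± 0.24). E(spl)m2-BFM stood at 8.43 and 9.72 TPM in antennae and was listed at 0 in all 3 brain libraries.

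In 5-day brains no member passed for the stimulus. hry stood at 9.59, 4.92 and 6.47 TPM at 0 min, 14.9, 9.23 and 7.32 TPM at 10 min, 8.97, 9.10 and 7.48 TPM at 20 min, 6.75, 11 and 11.4 TPM at 30 min and 7.26, 11.2 and 8.13 TPM at 45 min. Every stimulated group overlapped the 0 min group. The mean of the 4 stimulated times differed from 0 min by log2 0.43 ± 0.26 (95% interval -0.12 to 0.98, edgeR adjusted p = 0.825). The single times gave 0.57, 0.30, 0.51 and 0.35, each ± 0.32, and 0% of the 10431 genes passed at any time (93 to 229 had an unadjusted p under 0.05). DESeq2 called 0 members at any of these times.

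The other tested members moved less. Over the 4 stimulated times, dpn differed by log2 0.34 ± 0.30, E(spl)m3-HLH by 0.26 ± 0.27, Hey by 0.24 ± 0.42 and E(spl)mbeta-HLH by -0.12 ± 0.28 (edgeR adjusted p from 0.825 to 0.897). E(spl)mbeta-HLH, E(spl)m3-HLH and Hey were at their lowest or near it in the libraries low in ribosomal protein transcripts. Hey, for example, stood at 0.608 TPM in 5-day 0 min C and 0.458 TPM in 5-day 20 min C, against a median of 1.62 TPM over the 15 libraries of 5-day brains. How far RNA quality or library preparation bears on these members was not tested.

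In older brains hry was also read at 30 min and 0 min. At 10 days it stood at 36.2 and 19.6 TPM at 30 min, against 12.5 and 15.7 TPM at 0 min, and at 25 days at 23.9 and 17.8 TPM at 30 min, against 14.0 and 16.7 TPM at 0 min. The stimulated libraries lay above those at 0 min at both ages. The differences were log2 1.0 ± 0.39 at 10 days (edgeR, adjusted p = 0.996) and 0.50 ± 0.39 at 25 days (adjusted p = 1), and 0% of genes passed at either age. The highest value belongs to 10-day 30 min A, the library in which gut markers summed to 9394 TPM. Without it the 10-day difference was 0.37 ± 0.43. The response did not differ detectably from that of 5-day brains (interaction 0.50 ± 0.50 for 10 days and -0.01 ± 0.50 for 25 days, adjusted p = 1 for both, 0% of genes passing).

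**Figure D4:**
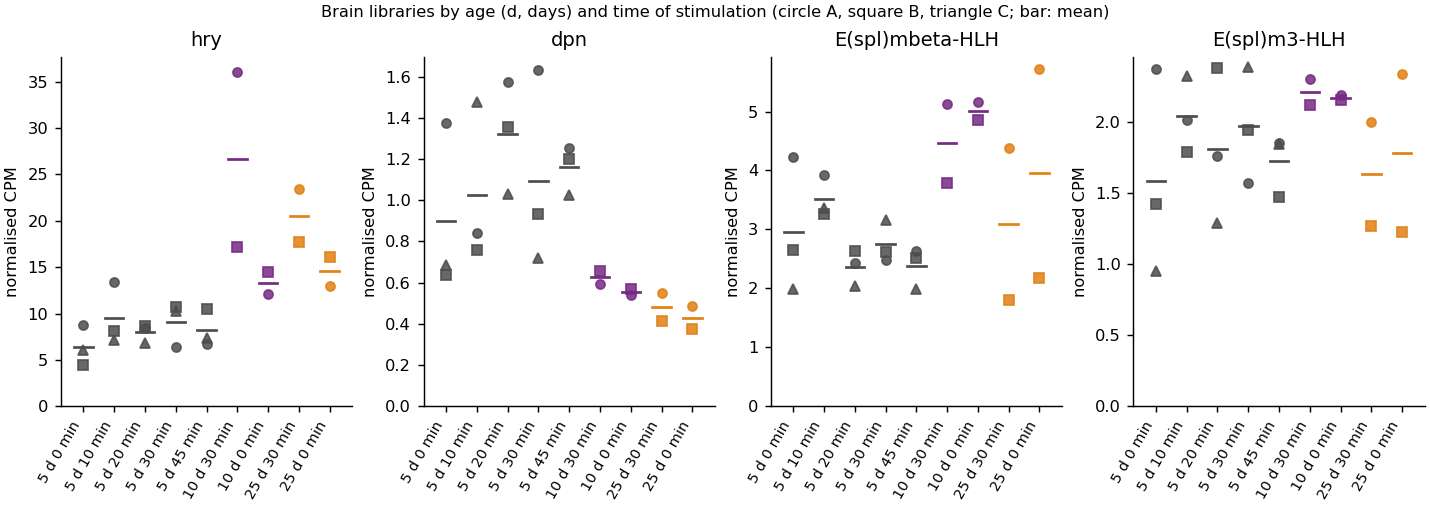
Normalised CPM of hry, dpn, E(spl)mbeta-HLH and E(spl)m3-HLH in the 23 brain libraries by age and time, with bars at group means. All 8 libraries of older brains lie between 12.1 and 36.1 CPM for hry, against 4.47 to 13.4 CPM at 5 days, and the order is the other way for dpn.

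hry stood higher in every library of older brains than in 5-day brains at the same time, a difference that edgeR did not call. Over all times it ranged from 4.92 to 14.9 TPM at 5 days, with a median of 8.97, from 12.5 to 36.2 TPM at 10 days and from 14.0 to 23.9 TPM at 25 days. Against 5 days, the difference at 30 min was log2 1.54 ± 0.35 at 10 days (adjusted p = 0.0567) and 1.17 ± 0.35 at 25 days (0.12). At 0 min it was 1.04 ± 0.35 at 10 days (0.168) and 1.17 ± 0.35 at 25 days (0.106). In the same order 0.671%, 0.489%, 0.115% and 1.65% of genes passed in these 4 comparisons, and 0 members did.

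DESeq2 put hry past the threshold in 3 of them, at 30 min for 10 days (adjusted p = 0.00368) and 25 days (0.0414) and at 0 min for 25 days (0.0364). The shares of genes above are those of edgeR. The share that DESeq2 called is not given here, so these calls cannot be weighed against a background. At 30 min the 10-day value was 0.91 ± 0.39 (edgeR, adjusted p = 1) without the library rich in gut transcripts, and 1.97 ± 0.37 (0.00484) without 10-day 30 min B. Fragment length partly followed age. Among libraries of 336 bases, hry stood at 30 min at 6.36, 10.8 and 10.3 normalised CPM in 5-day brains, 17.2 in 10-day B and 17.7 in 25-day B. At 0 min it stood at 6.06 in 5-day C, 14.5 in 10-day B and 16.1 in 25-day B. The direction was the same within that length, but at 0 min it rests on a single library per age. Of these libraries, 5-day C at 0 min and 25-day B at both times were low in ribosomal protein transcripts. Without the 4 libraries low in ribosomal protein transcripts, the 25-day difference was 1.37 ± 0.46 at 30 min (0.126) and 0.97 ± 0.51 at 0 min (0.244).

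Some markers of other cell types differed with age in the same comparisons. At 10 days and 0 min 0 glial, hemocyte or gut markers passed. Over all genes 0.671% passed at 10 days and 30 min, 0.489% at 25 days and 30 min, 0.115% at 10 days and 0 min and 1.65% at 25 days and 0 min. The 6 glial markers summed to 3231 to 4134 TPM in the 8 older libraries and to 4267 to 5686 TPM in the 15 of 5-day brains, without overlap. Of these 6, the glutamate transporter gene Eaat1 was lower at 10 days and 30 min (log2 -0.88 ± 0.19, edgeR adjusted p = 0.0445) and at 25 days and 0 min (-1.02 ± 0.19, 0.0222). Of 5 hemocyte (blood cell) markers, NimC1 was higher at 25 days at 30 min (2.58 ± 0.48, 0.0355) and at 0 min (2.68 ± 0.48, 0.0179), and Sr-CI at 0 min (2.15 ± 0.50, 0.0447). The hemocyte sum overlapped and did not rise, at 72.5 to 151 TPM in older brains and 101 to 170 TPM at 5 days, so NimC1 and Sr-CI do not stand for their list. In any brain library 0 of the 11 glial and hemocyte markers were below 0.1 TPM. The gut markers Mal-A2 and tobi were higher at 10 days and 30 min, where the library rich in gut transcripts lies. The part of these cell types in the age values of hry, dpn and the other members was not tested.

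dpn went the other way with age. At 30 min it stood at 1.98, 1.12 and 0.897 TPM in 5-day brains, at 0.679 and 0.845 TPM in 10-day brains and at 0.643 and 0.488 TPM in 25-day brains. At 0 min it stood at 1.75, 0.828 and 0.861 TPM at 5 days, 0.646 and 0.699 TPM at 10 days and 0.580 and 0.457 TPM at 25 days. Older and 5-day groups did not overlap at either time. The log2 differences from 5 days were -0.79 ± 0.41 and -1.16 ± 0.43 at 30 min (10 and 25 days; edgeR adjusted p = 0.723 and 0.196) and -0.69 ± 0.41 and -1.06 ± 0.43 at 0 min (0.403 and 0.236). None passed, and the 0 min values rested in part on 5-day A: without it they were -0.25 ± 0.41 and -0.62 ± 0.42. Estimated counts of dpn were 13 to 73 per brain library, and its transcripts overlap those of an antisense RNA gene.

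Of the other members, E(spl)mbeta-HLH lay above 5-day brains at 10 days and Hey below them at 25 days and 30 min, and neither passed. E(spl)mbeta-HLH stood at 3.79 and 5.13 normalised CPM at 10 days and 30 min, against 2.48 to 3.16 at 5 days, and at 4.86 and 5.17 at 10 days and 0 min, against 1.99 to 4.24 at 5 days. It averaged 15.03 ± 1.44 TPM over the 4 libraries of 10-day brains and 9.39 ± 2.47 TPM over the 15 of 5-day brains (SD). The difference was log2 0.69 ± 0.39 at 30 min (edgeR, adjusted p = 0.774) and 0.76 ± 0.39 at 0 min (0.334). At 25 days its 2 A libraries held 13.4 TPM at 30 min and 17.97 TPM at 0 min, and the 2 B libraries, low in ribosomal protein transcripts, 5.62 and 7.02 TPM. E(spl)m3-HLH ranged from 2.10 to 5.40 TPM over all brains. Hey stood at 0.341 and 0.862 normalised CPM at 25 days and 30 min, against 1.05 to 1.46 at 5 days. It differed by -1.06 ± 0.60 between 25 and 5 days at 30 min (adjusted p = 0.345), with the lower of its 25-day libraries again B. Of the pathway lists, 0 of 24 Notch core genes, 0 of 5 co-repressor genes and 0 of 9 proneural bHLH genes tested in brains passed for the stimulus or for age. Over all genes 0% passed for the stimulus in brains and 0.115% to 1.65% for age, so these counts say little about the pathway.

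**Figure D5:**
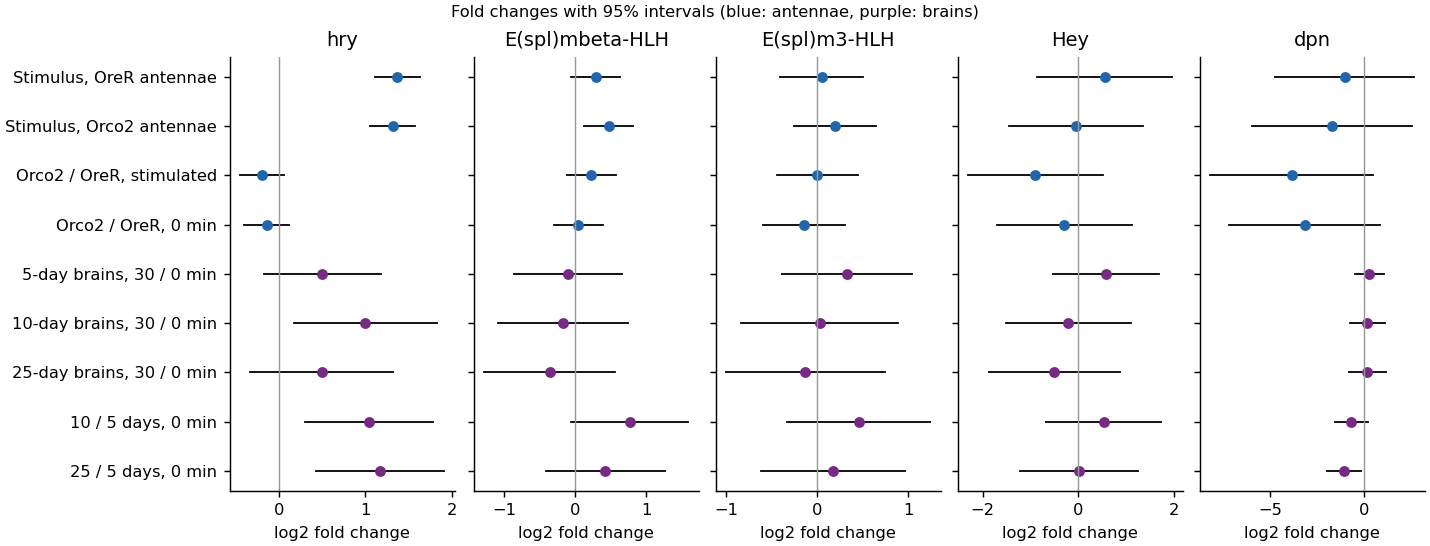
Log2 fold changes (points) with 95% intervals (lines) of the 5 members tested in both tissues, for 9 comparisons named on the left with the numerator first. The rise of hry in stimulated antennae is shown as a description, and the wide intervals of dpn and Hey in antennae reflect their low counts.

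Across the 13 groups, hry averaged 123 TPM in stimulated OreR antennae, 106 in stimulated Orco2 antennae, 48.1 in OreR antennae at 0 min and 42.2 in Orco2 antennae at 0 min. Brains followed with 27.9 TPM at 10 days and 30 min, 20.9 at 25 days and 30 min, 15.3 at 25 days and 0 min and 14.1 at 10 days and 0 min. The 5-day groups came last, between 6.99 and 10.5 TPM. Neighbouring groups in this order overlapped except between the stimulated groups of the 2 strains, between stimulated and 0 min antennae, between antennae and brains, and between 25-day brains at 30 and at 0 min. The genes nearest to hry over the 23 brain libraries, by the measure of likeness used for antennae, were Xrp1, which encodes a stress-responsive transcription factor (0.34), CG32687 (0.34), CG15211 (0.36), Cyp12c1 (0.37) and pst (0.37), among 8425 genes and with a scatter of hry of 0.66. None of the 5 was among the 5 nearest in antennae.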

How the data were processed

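Libraries were prepared from total RNA with TruSeq reagents of Illumina, per the labels' protocols. The authors deposited, for each of 31 libraries, an estimated count and a TPM value for 30490 transcripts, per the file headers. They were made with kallisto 0.43.1 on dm6, per the submitters' processing notes, where CASAVA 1.7 and edgeR 3.18.1 are listed too. What strand setting, trimming and annotation release were used is not given in the sources used here. The deposited TPM was summed per gene and serves for levels and for 1 alternative.

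The Ensembl annotation of BDGP6.54 gave each transcript its gene (30255 matched, in 13821 genes), and the unmatched ones held 0.396% to 0.514% of the counts of a library. Gene values are sums of estimated counts, rounded to integers. Genes were tested with the edgeR 4.0.16 quasi-likelihood F-test in R 4.3.3 (TMM, filterByExpr, robust, 1 coefficient per group) and Benjamini-Hochberg adjustment over all genes of a fit, at a threshold of 0.05. The fits were antennae (8 libraries, 11298 genes), brains (23 libraries, 10431 genes) and both (31 libraries, 11772 genes). Of the 9 members 7, 5 and 7 passed the low-count filter. Fold changes are log2 values ± a standard error derived from the F-statistic, intervals are 95%, and normalised CPM was scaled by TMM within a tissue. No 2 libraries of a group agreed within counting error, and each was kept as a replicate. The procedure was checked on simulated counts.

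Alternatives were RLE normalization, DESeq2 1.42.0, no low-count filter, limma 3.58.1 on log2(TPM + 0.5), the compared groups alone, fragment length class (length minus effective length) as a batch term, a replicate block, and each library left out. Leaving out libraries low in ribosomal protein transcripts was chosen after seeing the data. In 5-day brains same-letter deviations correlated positively in all 3 pairs against 0 min. The values were 0.44 to 0.59 at 10 min, 0.12 to 0.84 at 20 min, 0.06 to 0.53 at 30 min and 0.07 to 0.60 at 45 min. For the stimulus they were 0.68 in OreR antennae, 0.25 in Orco2 antennae, 0.94 in 25-day brains and -0.19 in 10-day brains. The reported tests hold no replicate term, and the block changed no call of a member for the stimulus in brains. The members and the pathway and marker lists were chosen with earlier results of these data known. The text names all 9 members, the called genes of each list or those with the smallest p, and the 5 genes most like hry per tissue. Nrarp, BobB and BobC matched no gene in the files, and E(spl)m1 was read as Kaz-m1, its current symbol.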

Additional observations from a re-analysis of the deposited data

How the results depend on the processing

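Of the 1544 alternative values of single members, 1421 kept both their direction and their side of the threshold, 10 came to pass it, 4 ceased to pass it and 1 (hry in stimulated Orco2 antennae) moved by more than its SE. The other 108 changed sign, all of them values that passed neither as reported nor under the alternative, in 48 of 114 member comparisons. No direction can be given for those, which include E(spl)m3-HLH for the stimulus in OreR (-0.19 to 0.26), Hey for the stimulus in Orco2 (-0.31 to 0.27) and E(spl)mbeta-HLH at 25 against 5 days at 0 min (-0.43 to 0.96). Between strains at 0 min the count of members called was 1 (E(spl)mgamma-HLH) with DESeq2, with limma on TPM, with fragment length as a batch term and with the replicate block, against 0 as reported. That gene passed the low-count filter only through OreR. The share of all genes called under each alternative is not given here for strain or age. Thus neither this count nor those that follow can be set beside a background. The stimulated strain comparison gave 0 instead of 1 with the compared groups alone (adjusted p of E(spl)mgamma-HLH 0.0762), and 0 to 1 with a library left out. For age, DESeq2 called 1 member (hry) at 25 against 5 days at 0 min, and 1 at each older age at 30 min, against 0 as reported. With a library left out, 10 against 5 days at 30 min gave 0 to 1. The replicate block called 1 member at 10 against 5 days at 30 min (hry, log2 1.42 ± 0.37, adjusted p = 0.0436) and 1 at 25 against 5 days at 30 min (dpn, -1.20 ± 0.40, 0.0477), and for E(spl)mgamma-HLH at 0 min it gave -7.60 ± 0.78 (0.0016). The replicate letters do not pair these libraries by the labels, and same-letter deviations were negatively correlated in all pairs of both age comparisons at 30 min (-0.51 to -0.33). The cause of these shifts was not tested. The log2 difference of hry in stimulated antennae kept to 1.21 to 1.44 in Orco2 and 1.34 to 1.42 in OreR. With fragment length as a batch term the tissue comparison could not be fitted. Depth limits dpn, E(spl)mgamma-HLH in Orco2, E(spl)m7-HLH, E(spl)mdelta-HLH and E(spl)m8-HLH, each with few counts per library, and 2 libraries per group limit every antennal and older-brain comparison.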
